A study of Mus musculus with 8 samples.

Results

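The genes described here were the classical axon guidance ligands and receptors, measured in the hippocampus of young and very old mice. A gene was taken as a member when its symbol matched the ephrins (Efna, Efnb), the Eph receptors (Epha, Ephb), Slit, Robo, the semaphorins (Sema), the neuropilins (Nrp), the plexins (Plxn), the netrins (Ntn), Dcc or Unc5a to Unc5d. That rule used names and no measured value. It found 69 genes with 89 probes, of 19751 named genes and 39429 probes on the array. Another transcript that matched the pattern, the antisense RNA Plxna4os1, had no probe.

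RNA came from the hippocampus of C57BL/6J wild type mice without treatment that had aged in their home cages. The 3M group held 4 samples from mice of 3 months and the 29M group 4 samples from mice of 29 months, which the study took as the end of the life span of this strain. The older animals had been bought at an advanced age and kept on until the final age was reached, so the groups also differed in where part of their life was spent. The labels give no more on whether each sample was 1 animal, and p-values therefore measure the spread between these samples. Each sample was hybridised in 1 colour (Cy3) to 1 array, with arrays of both ages on each of the 3 slides used. Slide 1 held 3M replicate 1 and 29M replicates 3 and 4. Slide 2 held replicate 2 of both groups, and slide 3 held 3M replicates 3 and 4 and 29M replicate 1.

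Between 76.2% and 85.0% of the probes were well above background on an array, and the correlation between any pair of arrays was at least 0.991. The sample of 3M replicate 1 had the lowest of these shares and was the only one whose scan the scanner software marked for evaluation. The complement gene C4b, known to be higher in the aged brain, lay between 13.91 and 14.95 log2 units in the 3M arrays and between 16.48 and 16.85 in the 29M arrays, so that every array stood on the side of its label. All 6 markers of excitatory hippocampal neurons were well above background on all 8 arrays.

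Guidance molecules steer growing axons by attracting or repelling the growth cone. Ephrins are membrane-bound ligands of Eph receptor tyrosine kinases, and signals pass in both directions between the touching cells. Slit proteins are secreted and bind Robo receptors. Class 3 semaphorins are secreted and mostly act through a neuropilin that binds the ligand together with a plexin that signals, whereas semaphorins of classes 4 to 7 are held at the membrane and mostly bind plexins directly. Netrins attract axons through Dcc and repel them through Unc5 receptors. In the adult hippocampus many of these proteins remain at synapses and dendritic spines, and Sema3 ligands, neuropilins and Eph proteins are known for the layering of mossy fibre and entorhinal inputs.

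To show the regulatory sequence beside the measurements, the 250 bases upstream of the RefSeq start (build GRCm38.p6) are given 5′ to 3′ for the 4 members with the smallest p, of which Robo3 and Sema3e had lower and Ephb1 and Plxnb3 higher means in 29M. Capitals mark the GC box, GGGCGG or its reverse complement CCGCCC, the core to which Sp1-type factors bind.
Robo3 (chr9:37433176-37433425, minus strand): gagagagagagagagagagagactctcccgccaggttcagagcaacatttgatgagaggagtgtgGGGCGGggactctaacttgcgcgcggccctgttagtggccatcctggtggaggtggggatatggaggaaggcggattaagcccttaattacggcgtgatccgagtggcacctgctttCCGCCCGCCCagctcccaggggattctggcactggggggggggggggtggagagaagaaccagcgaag
Sema3e (chr5:14025026-14025275, plus strand): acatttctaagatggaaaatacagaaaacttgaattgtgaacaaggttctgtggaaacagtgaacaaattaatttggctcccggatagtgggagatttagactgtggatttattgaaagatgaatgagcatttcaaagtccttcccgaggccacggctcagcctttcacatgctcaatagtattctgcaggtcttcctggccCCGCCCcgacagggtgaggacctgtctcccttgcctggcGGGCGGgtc
Ephb1 (chr9:102354694-102354943, minus strand): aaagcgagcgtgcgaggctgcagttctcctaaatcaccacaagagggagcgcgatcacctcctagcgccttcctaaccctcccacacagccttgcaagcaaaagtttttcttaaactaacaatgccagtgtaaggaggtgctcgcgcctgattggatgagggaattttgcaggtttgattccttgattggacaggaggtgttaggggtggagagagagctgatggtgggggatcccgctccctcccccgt
Plxnb3 (chrX:73756853-73757102, plus strand): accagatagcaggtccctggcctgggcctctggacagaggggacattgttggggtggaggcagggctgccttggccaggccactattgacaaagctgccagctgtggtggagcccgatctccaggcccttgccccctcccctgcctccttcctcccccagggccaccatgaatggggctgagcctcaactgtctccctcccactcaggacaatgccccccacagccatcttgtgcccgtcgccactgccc
The GC box occurred 3 times upstream of Robo3, where a pair of matches overlapped, and 2 times upstream of Sema3e, while neither of the windows of Ephb1 and Plxnb3 held it. Over all members found in the RefSeq table, 53 of 75 windows held it (70.7%), against 45.7% of the windows of all tested genes and 32.7% of all windows of this length in the table. These matches describe letters and not binding.

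Values below are log2 intensities after variance stabilising normalization. A difference is the 29M mean minus the 3M mean, so that a negative value means less signal in old mice, and it was tested with limma with Benjamini-Hochberg adjustment over all 39408 tested probes. Calls required an adjusted p below 0.1 and a difference of at least 0.5, which is a 1.41-fold change. Each gene is represented by the probe with the highest mean. In a bulk tissue a lower signal can mean fewer cells of a type or less RNA per cell, and these cannot be told apart.

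Of the 69 guidance genes, Robo3 was the only one called, and it fell. That is 1 of 89 probes (1.12%), against a background of 2.06% of all probes called in either direction, 1.25% called higher and 0.809% called lower. By gene it is 1 of 69 (1.45%), against 2.26% of all named genes. Sema3e also passed the adjusted p but not the minimum difference, so that 2 member probes had an adjusted p below 0.1, where 3.53% of all probes did. An unadjusted p below 0.05 was reached by 16 of the 89 probes (18.0%, background 16.9%), 6 with higher (background 8.24%) and 10 with lower means in 29M (background 8.68%). The share of the members past these thresholds was thus near that of the array as a whole.

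For most members the arrays bounded the age difference. The 95% interval of the difference lay entirely within 0.5 log2 units on either side of 0 for 53 of 89 probes (59.6%, background 68.4%). The remaining intervals reached past 0.5 on at least 1 side, so that for these probes, Robo3 apart, a difference of that size was neither called nor bounded. Sign alone was negative for 54 of 89 member probes (60.7%), against 49.2% of all probes. The median difference over the member probes was -0.04 against 0.00 over all probes, with single genes between -0.69 and 0.47.

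**Figure D1:**
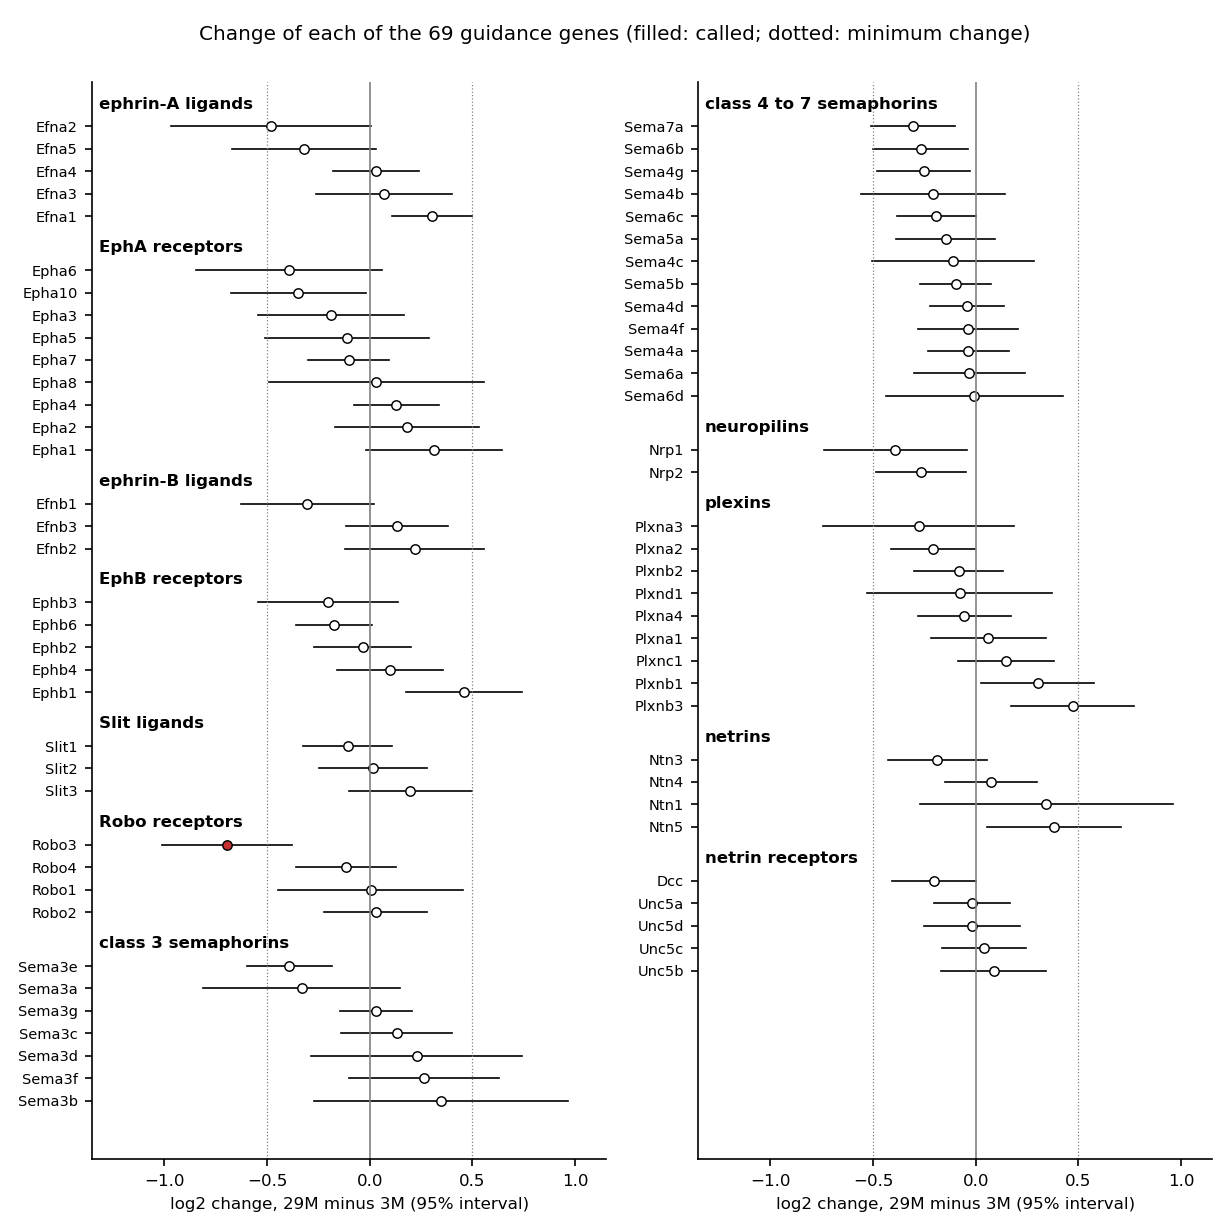
Difference in log2 intensity (29M minus 3M, horizontal axis) of each of the 69 genes, by family, with its 95% interval from limma; dotted lines mark the minimum difference of 0.5 and the filled point is the only called gene. Robo3 stands alone at -0.69, and all other genes have open points between -0.48 and 0.47.

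Robo3 is the divergent Robo receptor, known for letting commissural axons reach the midline before they become sensitive to Slit. Its log2 intensity in the 3M arrays was 11.87, 12.09, 12.12 and 12.12, and in the 29M arrays 11.33, 11.76, 11.25 and 11.09. All 4 old samples lay below all 4 young samples, with the sample of 29M replicate 2 nearest to the young group. The mean fell by 0.69 (SE 0.14, 95% interval -1.01 to -0.38), a 1.62-fold lower signal, with an adjusted p of 0.0494 from limma. Without overlap the difference had to be negative within each slide, and it was -0.71 on slide 1, -0.33 on slide 2 and -0.79 on slide 3. The only young array of slide 1 was 3M replicate 1, and slide 2 held a single array of each age.

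The direction of Robo3 was the same in all 18 alternative fits and ranged from -0.83 to -0.60, and it was called in 11 of them. The call was lost in some of these fits and kept in others. It was lost without 3M replicate 2 (-0.68, adjusted p 0.143), 3M replicate 3 (-0.67, 0.117), 3M replicate 4 (-0.67, 0.107), 29M replicate 1 (-0.69, 0.139) or 29M replicate 4 (-0.60, 0.113), with the processed signal scaled to its 75th percentile (-0.66, 0.143), and with the replicate number as a block (-0.69, 0.122). It was kept without 3M replicate 1 (-0.75, 0.0325), 29M replicate 2 (-0.83, 0.022) or 29M replicate 3 (-0.66, 0.096). In the fits that lost the call, 1.02% to 1.71% of all probes were called, against 2.06% as reported. Without 29M replicate 2, where the call was kept, 1.14% were called. Why the call was lost was not tested. Robo3 was read by 1 probe only.

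**Figure D2:**
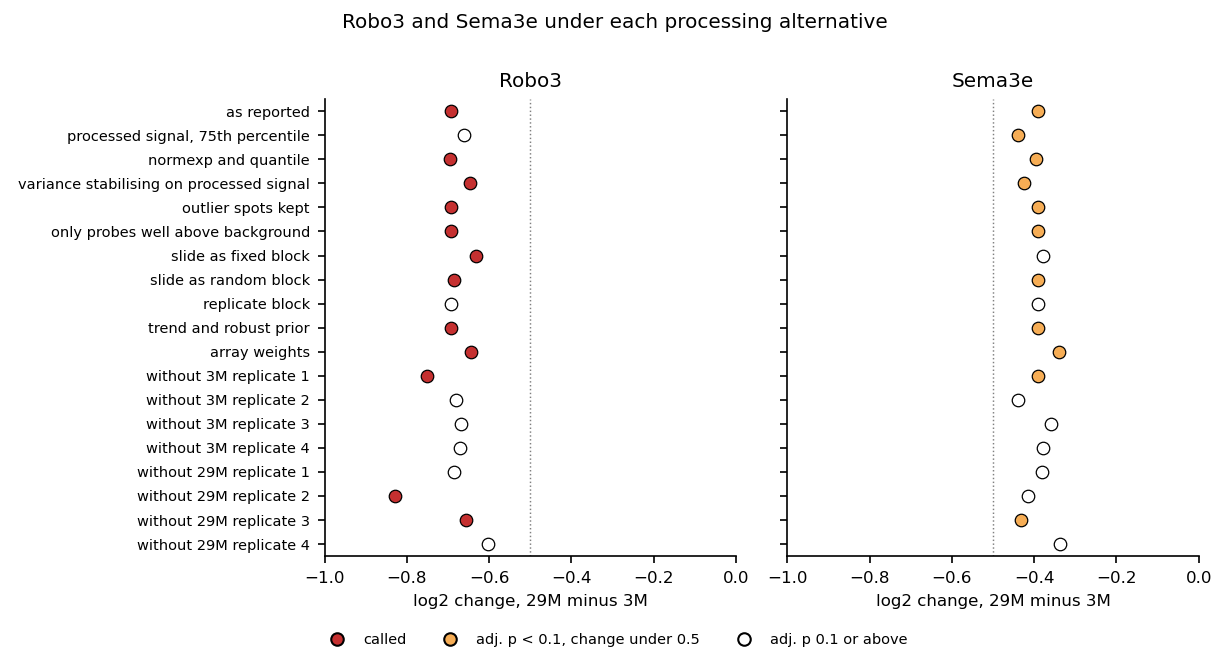
Difference of Robo3 and Sema3e (29M minus 3M, log2 units, horizontal axis) as reported and under 18 alternatives (rows), with the dotted line at the minimum difference. The Robo3 points lie between -0.83 and -0.60 and are red where the gene was called, and the Sema3e points lie between -0.44 and -0.34 and are orange where only the adjusted p passed.

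The other Robo receptors gave values near 0. Robo1 and Robo2 are the main Slit receptors of forebrain axons, and Robo4 is the endothelial member. Robo1 varied widely among the young samples, at 11.93, 12.73, 12.81 and 11.98, whereas the old samples lay between 12.27 and 12.41, and the difference was 0.00 (95% interval -0.45 to 0.46). Robo2 differed by 0.03 (-0.22 to 0.28) on its brighter probe and by 0.04 on the other. The signs of Robo1 and Robo2 turned under several alternatives. Robo4 differed by -0.12 (-0.36 to 0.13, adjusted p 0.634).

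The Slit ligands were equally close between the ages. Slit1 averaged 15.46 ± 0.16 (SD, n = 4) in 3M and 15.35 ± 0.08 in 29M, a difference of -0.11 (95% interval -0.32 to 0.11). Slit2 differed by 0.02 (-0.25 to 0.28), with a sign that turned under other scalings. Slit3 differed by 0.20 (-0.10 to 0.50, adjusted p 0.495), where 3 old samples lay between 11.15 and 11.23, inside or just above the young range of 11.05 to 11.21, and the sample of 29M replicate 4 lay at 11.76. All 3 intervals stayed within 0.5 of 0. The difference between Robo3 and its ligands in their response to age was not tested.

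Sema3e, a secreted repellent that binds Plxnd1 directly without a neuropilin, had the second smallest p. Its values were 11.53, 11.38, 11.62 and 11.56 in 3M and 11.10, 11.20, 11.25 and 10.97 in 29M. Again every old sample lay below every young one. The difference was -0.39 (SE 0.09, 95% interval -0.60 to -0.18, adjusted p 0.0766), which missed the minimum difference, and it lay at -0.41, -0.18 and -0.49 within the slides. Its sign held in all 18 alternative fits and it was called in none of them. The receptor Plxnd1 differed by -0.08 on its brighter probe (-0.53 to 0.37), with a sign that turned under some alternatives, and by -0.25 on the other (adjusted p 0.537).

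**Figure D3:**
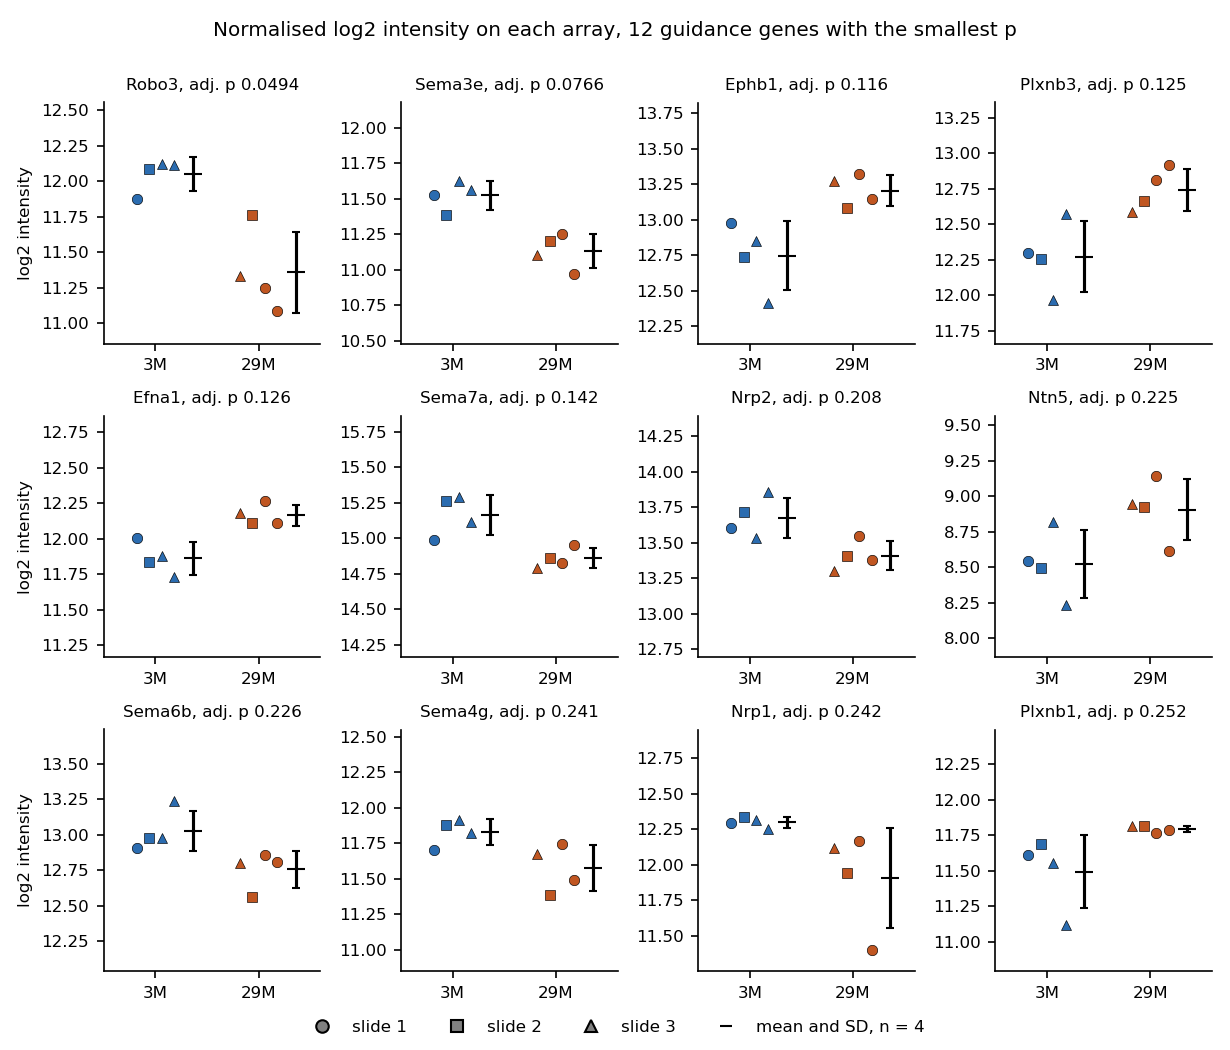
Normalised log2 intensity (vertical axis, the same span in each panel) of the 12 genes with the smallest p on each of the 4 arrays of 3M (blue) and 29M (orange), with the shape giving the slide and the bar the mean and SD. Robo3, Sema3e, Sema7a, Sema6b and Nrp1 have every 29M point below the 3M points, Ephb1, Plxnb3, Efna1 and Plxnb1 every 29M point above them, and the groups of Nrp2, Ntn5 and Sema4g overlap.

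Of the other class 3 semaphorins none was called. Sema3a, the prototype repellent of the class, averaged 10.29 ± 0.38 (SD, n = 4) in 3M and 9.96 ± 0.34 in 29M (-0.33, adjusted p 0.474), with overlapping groups. Sema3f, which repels hippocampal axons through Nrp2, averaged 11.72 ± 0.15 and 11.98 ± 0.34 (0.26, adjusted p 0.452). Sema3b gave 0.35, but its interval from -0.27 to 0.96 was the widest of the class, since the sample of 3M replicate 3 lay at 11.52 and the other young samples between 12.75 and 12.82. Sema3c, Sema3d and Sema3g differed by 0.13, 0.23 and 0.03.

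Both neuropilins, the ligand-binding partners of the class 3 semaphorins, had lower means in old mice, and neither was called. Nrp1, which also binds vascular growth factor, was tightly grouped in 3M at 12.30, 12.33, 12.32 and 12.25 and lay at 12.12, 11.94, 12.16 and 11.40 in 29M. The groups did not overlap, and the sample of 29M replicate 4 was far below the rest. The difference was -0.39 (SE 0.16, 95% interval -0.74 to -0.04, adjusted p 0.242). Nrp2 averaged 13.68 ± 0.14 in 3M and 13.41 ± 0.10 in 29M, a difference of -0.27 (adjusted p 0.208), and its other probe gave -0.38 (adjusted p 0.222). The signs were negative for both genes in every alternative fit. They were also negative on every slide, which for Nrp1 follows from the lack of overlap. Without 3M replicate 1, which read low on the second Nrp2 probe (11.79 against 12.32 to 12.36), that probe was called (-0.52, adjusted p 0.0343). In that fit 3.73% of all probes and 4.60% of the member probes were called, against 2.06% and 1.12% as reported.

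The membrane-bound semaphorins of classes 4 to 7 all had negative differences in 29M, and none of the 13 genes was called. Their median was -0.11, and 10 of the 13 intervals lay within 0.5 of 0. Sema7a, a lipid-anchored semaphorin that acts through integrins and Plxnc1, had the smallest p of the group, with 14.99, 15.26, 15.29 and 15.12 in 3M and 14.79, 14.86, 14.83 and 14.96 in 29M. Those groups did not overlap, and the difference was -0.31 (SE 0.09, 95% interval -0.51 to -0.10, adjusted p 0.142). Sema6b, which binds class A plexins, differed by -0.27 (adjusted p 0.226), likewise without overlap, and Sema4g by -0.25 (adjusted p 0.241). Sema5a, a semaphorin with thrombospondin repeats that limits synapse number in granule cells, averaged 14.90 ± 0.16 and 14.75 ± 0.14 (-0.15, adjusted p 0.532). The other 9 genes lay between -0.21 and -0.01 on their brightest probes, and the other probe of Sema6d gave 0.09.

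The mean of the 13 genes, each centred on its own average, was -0.03, 0.12, 0.14 and 0.05 log2 units in the 3M arrays and -0.05, -0.10, -0.06 and -0.06 in the 29M arrays. All 4 old arrays lay below all 4 young ones, and 3M replicate 1 was the young array nearest to them. The group means differed by -0.13. Such array means also separated for the Robo receptors (0.01 to 0.23 in 3M, -0.15 to -0.07 in 29M). That family held 4 genes with a median difference of -0.06, among them the called Robo3 at -0.69. Robo means without Robo3 were not made. Array means separated for the 2 neuropilins too (0.10 to 0.23 in 3M, -0.43 to 0.03 in 29M), and overlapped in every other family. How often sets of other genes separate in this way was not tested. For classes 4 to 7 the count of negative differences was 13 of 13 with quantile normalization. It was 11 of 13 with the processed signal in either scaling, and 10 of 13 with slide as a fixed block. With 1 array left out it was lowest, at 10 of 13, without 3M replicate 3 or 29M replicate 3, and 11 of 13 without 3M replicate 2. Within slides 9, 13 and 11 of the 13 were negative on slides 1, 2 and 3. Genes of one array are not independent replicates, and no test of the group was made.

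**Figure D4:**
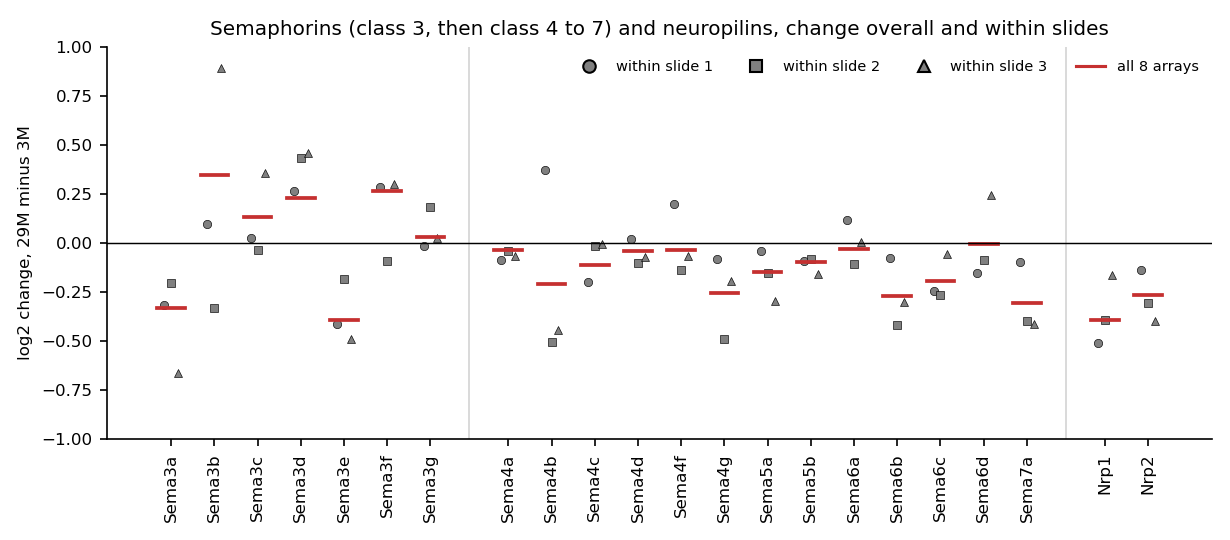
Difference in log2 intensity (29M minus 3M, vertical axis) of each semaphorin and neuropilin over all 8 arrays (red bar) and within each of the 3 slides (symbols). All 13 red bars of classes 4 to 7 lie below 0, with 4, 0 and 2 within-slide points at or above 0 on slides 1, 2 and 3, and both neuropilins lie below 0 throughout; with the processed signal 11 of the 13 class 4 to 7 genes were negative.

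The plexins, which carry the semaphorin signal into the cell, were split. Plxnb3, a receptor of Sema5a that is known from oligodendrocytes, had 12.29, 12.25, 11.96 and 12.57 in 3M and 12.58, 12.66, 12.81 and 12.91 in 29M. The old samples were all higher, the lowest by a margin of less than the spread within either group. The difference was 0.47 (SE 0.13, 95% interval 0.17 to 0.77, adjusted p 0.125), and it was called without 3M replicate 4 (0.57, adjusted p 0.0821) and in no other alternative. Plxnb1, the Sema4d receptor, differed by 0.30 without overlap (adjusted p 0.252), with old samples between 11.77 and 11.82 and the sample of 3M replicate 4 at 11.12 against 11.55 to 11.69 in the other young ones.

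The class A plexins that pair with neuropilins gave small values. Plxna2, known for placing mossy fibres, differed by -0.21 (adjusted p 0.287), with 14.03 ± 0.10 (SD, n = 4) in 3M and 13.82 ± 0.12 in 29M. Plxna3 differed by -0.28 (-0.74 to 0.19), where the sample of 3M replicate 4 lay at 10.85 and the other young samples between 11.66 and 11.75. Plxna4 differed by -0.06 (-0.28 to 0.17) over the 7 arrays with a usable spot, and its sign turned when outlier spots were kept. Plxna1, Plxnb2 and Plxnc1 differed by 0.06, -0.08 and 0.15.

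Among the Eph receptors, Ephb1 had the largest difference. EphB receptors bind ephrin-B ligands and cluster NMDA receptors at excitatory synapses. Ephb1 lay at 12.98, 12.74, 12.85 and 12.41 in 3M and at 13.27, 13.08, 13.33 and 13.14 in 29M. All 4 old samples were above all 4 young ones. The difference was 0.46 (SE 0.13, 95% interval 0.18 to 0.74, adjusted p 0.116), and it was called without 3M replicate 1 (0.54, adjusted p 0.0511) and in no other alternative. Leaving out that sample raised the share of all probes called to 3.73%, from 2.06% as reported. With the processed signal scaled to its 75th percentile the Ephb1 difference was 0.28 (adjusted p 0.255). Its relatives gave -0.03 for Ephb2, whose sign turned under some alternatives, -0.20 for Ephb3, 0.10 for Ephb4 and -0.17 for the kinase-dead Ephb6, none of them called.

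The EphA receptors, which bind the lipid-anchored ephrin-A ligands, showed no called gene among 9. Epha4, a receptor of dendritic spines that binds ephrins of both classes, lay between 14.70 and 14.94 in 3M and between 14.82 and 15.03 in 29M, a difference of 0.13 (95% interval -0.08 to 0.34). That 95% interval, not adjusted over the members, reached no further than 0.34 log2 units from 0. Epha7 differed by -0.10 (-0.30 to 0.09) on its brightest probe and by -0.09 and -0.03 on the others. Epha5 differed by -0.11 (-0.51 to 0.29), with a sign that turned without 3M replicate 3 (0.02), and by -0.31 on the other probe, for which 1 young array had no usable spot. The smallest p values of the group were those of Epha10 (-0.35, adjusted p 0.272) and Epha1 (0.31, adjusted p 0.323), in both of which the groups overlapped.

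Of the ephrins, Efna1 had the smallest p. It lay at 12.01, 11.83, 11.88 and 11.73 in 3M and at 12.18, 12.11, 12.27 and 12.11 in 29M, without overlap. The difference was 0.30 (SE 0.09, 95% interval 0.11 to 0.50, adjusted p 0.126), and it was positive in all 18 alternative fits and called in none. Efna2 had the largest difference of the ephrins, at -0.48 (SE 0.22, adjusted p 0.299), and overlapping groups, with 9.52, 10.40, 10.36 and 10.16 in 3M and 9.95, 9.86, 9.37 and 9.36 in 29M. The low young value was that of 3M replicate 1, without which Efna2 was called (-0.68, adjusted p 0.0641). Without that sample 3.73% of all probes were called, against 2.06% as reported.

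The ephrins long studied in the hippocampus were not called. Efna5 averaged 11.72 ± 0.32 (SD, n = 4) and 11.40 ± 0.14 (-0.32, adjusted p 0.339). Efna3, the astrocytic partner of Epha4, differed by 0.07 on its brighter probe and by -0.16 on the other, and the sign of the first turned with the processed signal in either scaling. Efnb2 averaged 12.60 ± 0.23 and 12.82 ± 0.25 on its brighter probe (0.22, adjusted p 0.507), and its other probe gave -0.14. Efnb3 averaged 15.0 ± 0.20 and 15.13 ± 0.09 (0.13, adjusted p 0.586). Efnb1 differed by -0.30 (adjusted p 0.329).

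None of the netrins and netrin receptors was called. Ntn5 differed by 0.38 (adjusted p 0.225), from 8.52 ± 0.24 (SD, n = 4) to 8.91 ± 0.22. Ntn1, the founding member of the family, gave 0.34 with an interval from -0.27 to 0.96, because the sample of 3M replicate 1 lay at 9.43 and the other young samples between 10.38 and 10.72; its other probe was above background on no array. Ntn3 differed by -0.19 (adjusted p 0.418), without overlap. Dcc, the attractive netrin receptor, averaged 18.06 ± 0.12 and 17.86 ± 0.10 on its brightest probe (-0.20, adjusted p 0.303). The other Dcc probes, well above background on 7 arrays and on 1 array, gave -0.05 and -0.27. Unc5a, Unc5b, Unc5c and Unc5d differed by -0.02, 0.09, 0.04 and -0.02, all with intervals within 0.5 of 0, and the signs of Unc5c and Unc5d turned under some alternatives.

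Groups without overlap were found for 11 of the 89 member probes (12.4%), against 11.1% of all probes. They were lower in 29M for Robo3, Sema3e, Sema7a, Sema6b, Nrp1, Ntn3 and the second probe of Ephb6, and higher for Ephb1, Plxnb3, Efna1 and Plxnb1. The background was 5.54% of probes for the lower and 5.52% for the higher direction. Of 18 genes with more than 1 probe, 14 had all probes on the same side of 0, and in none did probes differ by more than 2 standard errors. The 35 ligand genes had a median difference of -0.04 and the 34 receptor genes of -0.05.

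The further genes of the pathway, 88 co-receptors, adhesion partners and signalling genes chosen by function, were all on the array, and none was called, against 2.26% of all named genes. An unadjusted p below 0.05 was reached by 19 of them (21.6%, 10 higher and 9 lower), against 17.1% of all named genes. Crmp1, a collapsin response mediator that transmits semaphorin signals to microtubules, averaged 15.72 ± 0.11 (SD, n = 4) in 3M and 15.29 ± 0.03 in 29M (-0.43, adjusted p 0.0385). Vav2, an exchange factor recruited by Eph receptors, averaged 7.14 ± 0.07 and 6.75 ± 0.06 (-0.40, adjusted p 0.0442), and Farp2, an exchange factor of the Sema3a receptor complex, 11.11 ± 0.10 and 11.48 ± 0.13 (0.37, adjusted p 0.0972). All 3 passed the adjusted p and missed the minimum difference. Rnd1, a small GTPase that binds plexins, gave the largest difference of the list at -0.79 (SE 0.23, adjusted p 0.137), with groups that overlapped, and it was called without 29M replicate 3 (-0.97, adjusted p 0.0748).

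Markers of cell types were read beside these values, and few of them were called. For the immature neuron list (Dcx, Sox11, Calb2 and Igfbpl1) 0 of 4 markers were higher in 29M. Igfbpl1 was the only one called, at -1.55 log2 units (adjusted p 0.0904 from limma), with overlapping groups (lowest 3M array 9.21, highest 29M array 9.32). Dcx differed by -0.45 (adjusted p 0.117) without overlap, Sox11 by -0.43 (0.348) and Calb2 by -0.10 (0.796). The summed intensity lay between 6197 and 7776 units in the 3M arrays and between 4056 and 4762 in the 29M arrays. For oligodendrocyte precursors 2 of 4 markers were higher in 29M. Gpr17 fell by 0.99 (adjusted p 0.0562), while Pdgfra, Cspg4 and Neu4 differed by 0.00, 0.16 and -0.04. Sums of the 4 ran from 19690 to 22989 in 3M and from 12339 to 18274 in 29M. Gpr17 was the brightest of them in 3M (mean 13.60, Pdgfra 12.73), and sums without it were not made. All 4 microglia markers had higher means in 29M (median 0.35), none was called, and the sums over the 3 with a usable spot on every array overlapped, from 14819 to 24026 and from 19954 to 24639, with the highest young value in 3M replicate 1. All 4 oligodendrocyte markers had higher means too (median 0.16), none called, with sums from 238762 to 291111 and from 274804 to 316372. Of the endothelial and mural cell markers 4 of 5 had higher means, none called, of which Flt1 did not overlap between the groups (0.37, adjusted p 0.124), and the sums, from 38552 to 48141 and from 45603 to 52757, overlapped. Sums also overlapped for neurons, excitatory hippocampal neurons, interneurons, astrocytes, meninges and fibroblasts, choroid plexus, ependyma and the tissue next to the hippocampus, and no listed marker of these was called. The astrocyte marker Gfap, which was not in the list, was called higher in 29M (0.71, adjusted p 0.0235 from limma), without overlap. Every marker of all 13 lists was well above background on all 8 arrays. The part of these cells in the values of Robo3, Sema3e, Plxnb3 and the others was not tested.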

How the data were processed

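Hippocampal RNA of 4 samples at 3 months and 4 at 29 months was measured on 1-colour arrays, with groups taken from the sample titles. The authors deposited 1 scanner file per array, which holds the linear intensity of every spot before any normalization. The file headers name Agilent Feature Extraction 10.7.3.1 and an array design annotated on mm9, where the study's methods name another version and design, and the headers were followed. The median spot intensity was used, because the mean was not in the files used here. In the deposited table of the whole series all 8 columns equalled the local background intensity of an array (tolerance 0.001), 7 of them that of an array of some other sample, and none was used.

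Normalization type, linear model and thresholds followed the study's methods. Control spots and outlier spots (127 to 190 per array) were left out and spots of a probe averaged. Variance stabilising normalization was fitted in R 4.3.3 with an implementation written for this purpose (trimming quantile 0.9, 7 iterations, 5 slices), and its generalized log2 scale equals the log2 of the intensity after an offset over nearly the whole range. limma 3.58.1 was fitted with age as the only term over 39408 probes with at least 3 usable arrays in each group. Tested on simulated data with 200 changed probes among 39429 it recovered 100% of them, and 8.26% of its calls were false. The simulated differences were all larger than that of any member and were placed on brighter probes only. Recovery of smaller differences, such as those near the minimum of 0.5 log2 units, was not tested. Probes were named through their accession in the RefSeq table (GRCm38.p6), which gave 26055 of 39429 probes (66.1%) a gene. The number of arrays, 4 per group, limits the precision.

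The members, the 88 further pathway genes and the 13 cell type marker lists were chosen with earlier results of these data known, so no p-value was adjusted over a list and no list was tested. Values are given for called members, the 2 genes of smallest p in each family on their brightest probe, and members long studied in the hippocampus. A few others with wide spread or a family's range were added after their values were seen. Alternatives were other normalizations (processed signal scaled to its 75th percentile, normexp with an offset of 50 and quantile, variance stabilising normalization of the processed signal), outlier spots kept, dim probes removed, slide or replicate number as a block, another prior, array weights, other thresholds, the median over a gene's probes and each array left out. Same-numbered samples of the 2 groups correlated between -0.24 and 0.21 in their deviations from the group means, so the numbers were not taken as pairs.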

Additional observations from a re-analysis of the deposited data

Results flagged for a closer look

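In 8 of 87 groups of 4 arrays examined for the named genes, 1 sample stood apart from the other 3 by a gap whose share of the group's whole range was past Dixon's 95% critical value. Chance alone flags about 1 in 20 such groups, or 4.35 of 87. For Robo3 the sample was 3M replicate 1, at 11.87 against 12.09 to 12.12 (gap share 0.853). It was also the sample for Efna3, at 9.12 against 9.59 to 9.67 (0.857). Plxna3 had 3M replicate 4 at 10.85 against 11.66 to 11.75 (0.901). In the old group, 29M replicate 2 lay at 7.89 for Epha1 against 8.09 to 8.11 (0.902) and at 15.24 for Slit1 against 15.38 to 15.40 (0.839). The sample of 29M replicate 4 lay at 10.78 for Ntn3 against 11.16 to 11.21 (0.875) and at 11.76 for Slit3 against 11.15 to 11.23 (0.864). For Robo1, 29M replicate 3 lay at 12.27 against 12.39 to 12.41 (0.835). All values are log2 intensities, and no cause was tested.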

How the results depend on the processing

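Of the 44 named genes, 34 had 1 direction in every alternative fit and 10 turned in at least 1, all of them with differences near 0. Over all probes 491 were called higher and 319 lower. These counts were 266 and 145 with the replicate block, 850 and 680 with array weights, 308 and 179 at an adjusted p below 0.05, and 764 and 627 without a minimum difference, and they ranged from 265 to 825 and from 135 to 639 when 1 array was left out, highest without 3M replicate 1. Lower member probes numbered 1 as reported, 0 with the processed signal scaled to its 75th percentile and with the replicate block, 2 without a minimum difference, and 0 to 3 with 1 array left out, and higher member probes 0 to 1. Further pathway genes called lower were 0 as reported, 1 with the replicate block and 1 with array weights (Rnd1 in both) and 0 to 1 with 1 array left out, and called higher 1 with array weights (Plxdc1).

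With the replicate number as a block Robo3 stayed at -0.69 with an adjusted p of 0.122 and was no longer called. Same-numbered samples deviated together in 1 of 4 pairs, and 1 of the 3M samples correlated best with its own number, so the block has no basis in a pairing. No other named gene changed its call with the block.

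Directions turned as follows. With the processed signal at its 75th percentile the differences were -0.030 for Efna3, -0.12 for Robo1, -0.018 for Robo2, -0.038 for Slit2 and 0.15 for Unc5d, and with variance stabilising normalization of it -0.018, -0.11, -0.0063, -0.027 and 0.080. With normexp and quantile Robo1 was at -0.0029. With slide as a fixed block Ephb2 was at 0.012, Robo2 at -0.022, Slit2 at -0.022 and Unc5d at 0.0096. With outlier spots kept Plxna4 was at 0.087. With array weights Plxna4 was at 0.043, Plxnd1 at 0.035 and Robo1 at -0.12. The median over the probes of Efna3 was -0.046. With 1 array left out, Efna3 ranged from -0.056 to 0.14, Epha5 from -0.29 to 0.024, Ephb2 from -0.096 to 0.024, Plxnd1 from -0.21 to 0.046, Robo1 from -0.14 to 0.15, Robo2 from -0.054 to 0.088, Slit2 from -0.070 to 0.082, Unc5c from -0.0094 to 0.094 and Unc5d from -0.083 to 0.039. The cause of these changes was not tested. Plxna4 could not be fitted without 3M replicate 1, 2 or 3, and Unc5d was not tested where dim probes were removed. Signal limits the second probe of Ntn1, which was above background on no array.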
